A study of Macaca mulatta with 136 samples.

Results

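The Iroquois genes IRX1, IRX2, IRX3, IRX4, IRX5 and IRX6 were followed across rhesus macaque retina and RPE/choroid, the pigment epithelium taken with the underlying choroidal vessels. They were taken by their gene symbols, and all 6 were found, each as a single entry among 17727 symbols. The tissue came from the left eye (OS) and right eye (OD) of 2 adult animals, named RM03 and RM04. The animals were aged 13 and 18 years, and which of them had which age was not stated. They had received no treatment named in the labels. Foveal/macular, perimacular, nasal and peripheral punches of 2 mm were taken after death, and neural retina was separated from RPE/choroid. This gave 32 libraries, with 4 eyes in each of 8 groups of tissue and location. Fellow eyes share an animal, so that the p-values below measure mainly the spread between eyes of 2 animals.

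Iroquois proteins are transcription factors of the TALE class of homeodomain proteins, which carry an extended loop in the DNA-binding domain. In vertebrates their genes lie in a pair of clusters, IRX1 with IRX2 and IRX4, and IRX3 with IRX5 and IRX6, and they are known for dividing developing tissues into regions. In the vertebrate retina they are known mainly from inner retinal neurons. Irx5 and Irx6 are required for the maturation of certain cone bipolar cells of the mouse, and Irx4 has been tied to the guidance of ganglion cell axons in the chick.

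Library totals ranged from 42453989 to 78587002 estimated counts. Levels are given as CPM, counts scaled to a common library size with TMM factors, and were compared for each gene across samples but not between genes, because no transcript lengths were used. Foveal, perimacular and nasal libraries were each read on 5 lanes over 2 flow cells, and peripheral libraries on 2 lanes of a separate one, so that the periphery and its flow cell cannot be told apart. Where a library had been sequenced on 2 flow cells, the member levels from each differed by a median of 0.105 on the log2 scale and by at most 0.545, over 119 pairs with at least 50 counts. Rod genes in the RPE/choroid summed to between 0.310% and 12.9% of their level in the retina of the same eye and location. RPE genes in retina summed to between 0.724% and 5.57% of their RPE/choroid level in 15 of the 16 pairs, and to 41.3% at the periphery of RM03 OS. In that RPE/choroid library the RPE genes themselves summed to 792 CPM, against a highest sum of 7944 CPM at the periphery, and the Schwann cell genes to 11090 CPM, against a lowest of 440 CPM.

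In the retina, all 6 Iroquois genes were higher at the fovea/macula than at the periphery, at an adjusted p under 0.05 by edgeR's quasi-likelihood test. Of 15380 genes tested, 31% were called higher at the fovea/macula in this comparison. The median log2 fold change of the members was 2.82, against -0.06 over all genes tested. The size of the difference varied among the members, from 1.06 for IRX5 to 5.25 for IRX2 on the log2 scale.

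IRX1 and IRX2 had the steepest differences. IRX1 stood at 13.4 and 20.3 CPM at the fovea/macula of RM03 OD and OS, and at 14.3 and 15.4 CPM in RM04 OD and OS. At the periphery the 4 eyes held 0.678, 0.219, 0.635 and 0.497 CPM in the same order. Every foveal eye lay far above every peripheral eye, and the means of 15.8 ± 3.09 and 0.507 ± 0.207 CPM (SD, n = 4) were 31.2-fold apart. The log2 fold change of IRX1 was 5.0 ± 0.33 (SE, adjusted p = 1.9e-07).

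IRX2 reached 35.8, 42.9, 26.8 and 31.4 CPM at the fovea/macula of RM03 OD, RM03 OS, RM04 OD and RM04 OS. Its peripheral values were 1.51, 0.539, 0.959 and 0.709 CPM. The ranges were again far apart, with means of 34.2 ± 6.83 and 0.929 ± 0.422 CPM (SD, n = 4) and a log2 fold change of 5.25 ± 0.33 (SE, adjusted p = 1.4e-07).

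Both genes took intermediate values between these locations. The perimacula held 3.26 to 6.45 CPM of IRX1 and 5.88 to 13.1 CPM of IRX2, and the nasal location 2.75 to 3.52 and 4.84 to 6.21 CPM. At either location the lowest eye lay above the highest peripheral eye and the highest below the lowest foveal eye. The perimacula and the nasal location themselves overlapped. IRX1 was called in the comparisons of the fovea/macula with the perimacula, with a log2 fold change of 1.68 ± 0.28, and with the nasal location, at 2.41 ± 0.26. For IRX2 the corresponding values were 1.82 ± 0.28 and 2.60 ± 0.26. Over the periphery, the perimacula was higher by 3.33 ± 0.32 for IRX1 and 3.43 ± 0.31 for IRX2, and the nasal location by 2.58 ± 0.28 and 2.64 ± 0.28.

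IRX4, the third gene of that cluster, was measured at few counts. Its libraries held 22 to 92 estimated counts at the fovea/macula and 0 to 14 at the periphery, with 11 to 23 perimacular and 14 to 36 nasal counts. In RM03 OD, RM03 OS, RM04 OD and RM04 OS the fovea/macula values were 0.451, 1.01, 1.22 and 1.52 CPM, and those at the periphery 0.176, 0, 0.0405 and 0.0828 CPM. The value of 0 stood below 0.0438 CPM, the level of 3 counts in that library. The foveal and peripheral ranges did not overlap, but the lowest foveal eye lay within the nasal range of 0.206 to 0.586 CPM. The log2 fold change of IRX4 over the periphery was 3.77 ± 0.60 (adjusted p = 0.00015), that over the perimacula 1.79 ± 0.53 (adjusted p = 0.021) and that over the nasal location 1.65 ± 0.51 (adjusted p = 0.013). The latter calls, over the perimacula and the nasal location, were lost without RM04 OD (adjusted p = 0.14 and 0.10) and without RM04 OS (adjusted p = 0.14 and 0.13).

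Over the periphery, the genes of the other cluster had smaller foveal differences, which lay mainly between the fovea/macula and the rest. Against the nasal location IRX3 did not differ less than IRX4, with ratios of mean levels of 3.6 and 3.0. IRX3 measured 6.52, 9.03, 8.89 and 9.13 CPM at the fovea/macula of RM03 OD, RM03 OS, RM04 OD and RM04 OS and 2.36, 4.18, 1.68 and 1.67 CPM at the periphery. Each foveal eye was above each peripheral eye, and the left eye of RM03 stood above the others at the periphery. The log2 fold change was 1.86 ± 0.32 (adjusted p = 0.00027).

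IRX5 measured 6.46, 8.91, 10.2 and 10.4 CPM at the fovea/macula and 3.42, 4.37, 5.22 and 4.83 CPM at the periphery in the same order of eyes. The 2 ranges did not overlap, and the difference of 1.06 ± 0.19 on the log2 scale passed the test (adjusted p = 0.00031). IRX6 measured 19.3, 18.3, 18.4 and 17.04 CPM at the fovea/macula, the narrowest relative spread of any member there. It measured 7.25, 7.502, 10.3 and 8.31 CPM at the periphery, a difference of 1.20 ± 0.14 on the log2 scale (adjusted p = 1.3e-05).

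For IRX5 and IRX6 the perimacular, nasal and peripheral levels lay close together, while IRX3 was higher on average at the perimacula. The perimacular, nasal and peripheral means were 3.85, 2.32 and 2.47 CPM for IRX3. They were 4.73, 4.51 and 4.46 CPM for IRX5, and 9.91, 8.11 and 8.34 CPM for IRX6. All of their ranges overlapped, and none of the 9 comparisons among these locations passed the test for IRX3, IRX5 or IRX6. IRX3 stood at 0.73 ± 0.27 between the perimacula and the nasal location (adjusted p = 0.19), and was higher at the perimacula in 4 of 4 eyes. Its difference of 0.68 ± 0.32 between the perimacula and the periphery (adjusted p = 0.096) was called with DESeq2 (adjusted p = 0.038), with the nasal libraries in the fit (adjusted p = 0.047) and without RM03 OS (adjusted p = 0.026). IRX6 over the same contrast stood at 0.25 ± 0.14 (adjusted p = 0.16) and was called without RM04 OD (adjusted p = 0.037).

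**Figure D1:**
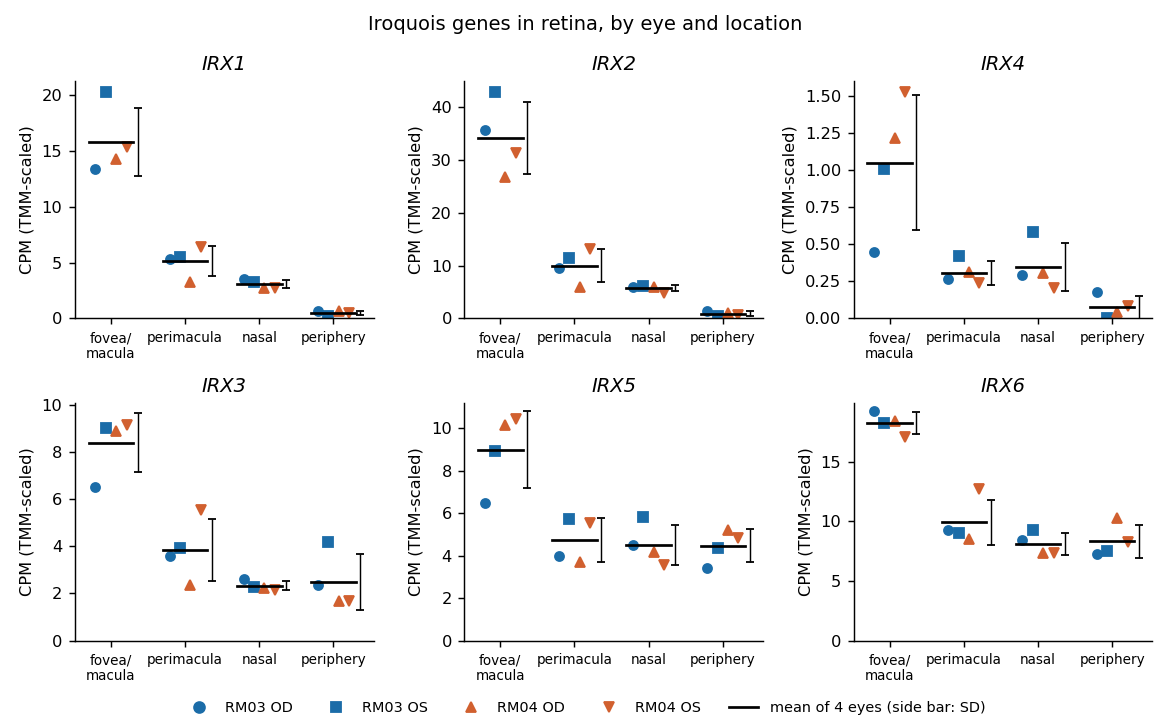
Levels of the Iroquois genes in retina, in CPM on linear axes that start at 0 and differ between panels. Each symbol is an eye (blue, RM03; orange, RM04), the black line is the mean of 4 eyes and the side bar its SD, cut off at 0 for IRX4 at the periphery; IRX1, IRX2 and IRX4 (top) differ between the nasal location and the periphery, while IRX3, IRX5 and IRX6 (bottom) are high at the fovea/macula and overlap across the other 3 locations.

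Counted over the 6 members, the retinal comparisons gave 6 calls of fovea/macula over perimacula, where 19% of genes were called higher. Against the nasal location there were also 6, where 25.1% of 15486 genes were called higher. Between the perimacula and the periphery, and between the nasal location and the periphery, the 3 members called were IRX1, IRX2 and IRX4, against 23.4% and 24.5% of genes called in that direction. None of the 6 members was called between the perimacula and the nasal location, where 1.49% of genes were called and 2569 genes had an unadjusted p under 0.05. In that comparison IRX1 stood at 0.74 ± 0.25 (adjusted p = 0.15) and IRX2 at 0.79 ± 0.25 (adjusted p = 0.13), and DESeq2 called both (adjusted p = 0.040 and 0.030). The difference between the clusters was not itself tested.

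Calls of single members depended on single eyes in a few of these contrasts. IRX3 at the fovea/macula over the perimacula, at 1.18 ± 0.31 (adjusted p = 0.012), was lost without RM04 OD (adjusted p = 0.077). IRX4 between the perimacula and the periphery, at 1.98 ± 0.64 (adjusted p = 0.022), was lost without RM03 OS, RM04 OD or RM04 OS (adjusted p = 0.098, 0.12 and 0.069). IRX4 between the nasal location and the periphery, at 2.15 ± 0.61 (adjusted p = 0.00945), was lost without RM03 OS or RM04 OD (adjusted p = 0.075 and 0.069).

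The cell types of the retina also differed between the locations. All 10 ganglion cell markers searched were found, none at 0 in any retinal group. Their summed level averaged 9635 CPM in foveal (8939 to 9964), 3806 in perimacular (2602 to 5553), 2010 in nasal (1892 to 2169) and 742 in peripheral retina (456 to 981). The ratio of the foveal to the peripheral sum was 12.98, against ratios of mean levels of 31.2 for IRX1, 36.9 for IRX2, 3.40 for IRX3, 14.1 for IRX4, 2.02 for IRX5 and 2.19 for IRX6. All 10 ganglion cell markers were called higher at the fovea/macula than at the perimacula and the periphery. The 7 of 8 bipolar cell markers found summed to 810 CPM in foveal, 1041 in perimacular, 1049 in nasal and 912 in peripheral retina, with 2 called higher and 3 lower at the fovea/macula than at the periphery. The 6 amacrine markers summed to 460, 563, 574 and 403 CPM in that order of locations, and the 5 cone markers to 2441, 1731, 1572 and 1596 CPM. The 9 rod markers summed to 4317, 14190, 16530 and 25520 CPM and were all called lower at the fovea/macula than at the periphery, as were all 4 of 5 Mueller glia markers found, which summed to 1057, 1692, 2370 and 3894 CPM. The part of these shifts in the Iroquois differences was not tested, and in bulk tissue fewer cells of a type and less RNA per cell cannot be told apart.

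The retinal levels differed little between the animals. None of the 6 members was called between RM03 and RM04 at any location, where in order from the fovea/macula through perimacula and nasal location to periphery 8.33%, 9.19%, 7.96% and 19.3% of genes were called in either direction. The largest difference was that of IRX3 at the periphery, where RM03 was higher by 0.94 ± 0.35 on the log2 scale (adjusted p = 0.080).

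In the RPE/choroid, IRX1, IRX2, IRX5 and IRX6 were higher at the fovea/macula than at the periphery, and IRX3 did not pass the test. Of 15674 genes tested, 21.2% were called higher at the fovea/macula. IRX4 was not tested in this tissue, since 13 of its 16 libraries held 0 counts and the others 1, 1 and 3 counts. The median log2 fold change of the 5 members tested was 1.36, against -0.06 over all genes.

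IRX1 measured 18.5, 29, 6.87 and 7.15 CPM at the fovea/macula of RM03 OD, RM03 OS, RM04 OD and RM04 OS and 3.26, 2.45, 5.14 and 2.93 CPM at the periphery. The ranges did not overlap, and the eyes of RM03 held the highest foveal values. The log2 fold change was 1.84 ± 0.43 (adjusted p = 0.0054). IRX2 measured 24.2, 30.7, 12.1 and 11.6 CPM at the fovea/macula and 3.88, 5.02, 7.07 and 2.15 CPM at the periphery. Here too the ranges were apart and RM03 was higher at the fovea/macula, with a log2 fold change of 2.0 ± 0.36 (adjusted p = 0.0011).

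IRX5 measured 58.5, 70.1, 10.1 and 18.1 CPM at the fovea/macula and 14.5, 12.4, 13.1 and 6.70 CPM at the periphery, so that RM04 OD was lower at the fovea/macula than at the periphery. The difference of 1.27 ± 0.40 (adjusted p = 0.026) was lost without RM03 OD, RM03 OS or RM04 OS (adjusted p = 0.14, 0.12 and 0.12) and without the animal covariate (adjusted p = 0.078). IRX6 measured 40.7, 48.5, 11.9 and 18.1 CPM at the fovea/macula and 12.5, 7.48, 9.76 and 9.49 CPM at the periphery. All 4 of 4 eyes had more at the fovea/macula, by 1.36 ± 0.31 (adjusted p = 0.0050), although the lowest foveal eye lay below the highest peripheral eye.

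IRX3 measured 25.2, 30.3, 10.3 and 13.1 CPM at the fovea/macula and 10.8, 10.9, 14.8 and 11.5 CPM at the periphery. Both eyes of RM03 were higher at the fovea/macula, while RM04 OD was lower and RM04 OS differed little. The log2 fold change of 0.54 ± 0.28 (adjusted p = 0.14) passed the test without RM04 OD (0.94, adjusted p = 0.026).

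**Figure D2:**
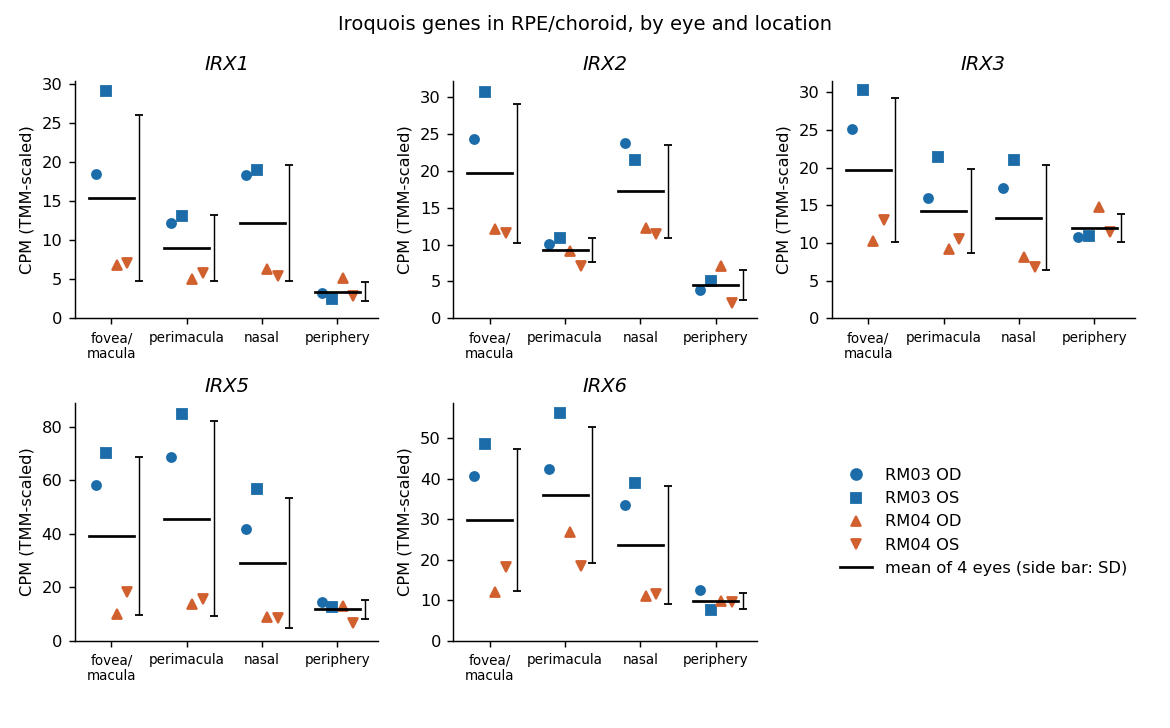
Levels of 5 Iroquois genes in RPE/choroid, in CPM on linear axes that start at 0; symbols, means and SD bars as in the retinal plot, and IRX4 left out because 13 of 16 libraries held no count. The blue RM03 eyes lie above the orange RM04 eyes in all 5 panels at every location but the periphery, where no RM03 pair lies above the RM04 pair and that of IRX3 lies below it.

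The other RPE/choroid comparisons fell into those with the periphery and those without. Between the perimacula and the periphery 3 of 5 members were called higher at the perimacula, IRX2 at 0.98 ± 0.34 (adjusted p = 0.046), IRX5 at 1.45 ± 0.41 (adjusted p = 0.018) and IRX6 at 1.70 ± 0.31 (adjusted p = 0.00185), against 17.7% of genes. Only IRX6 remained called there without RM03 OD, RM03 OS or RM04 OS, and without the covariate. IRX1, at 1.14 ± 0.42 (adjusted p = 0.055), was called with DESeq2 (adjusted p = 0.012) and without RM04 OD (adjusted p = 0.015). With the nasal libraries in the fit, 4 of 5 members were called in this contrast. Between the nasal location and the periphery 3 members were called higher at the nasal location, IRX1 at 1.46 ± 0.39 (adjusted p = 0.0081), IRX2 at 1.82 ± 0.32 (adjusted p = 0.00035) and IRX6 at 0.97 ± 0.30 (adjusted p = 0.017), against 21.8% of genes. Without RM03 OD the only call of these was IRX2 (adjusted p = 0.011). IRX6 was also lost without RM03 OS (adjusted p = 0.088), without the covariate (adjusted p = 0.065) and with the compared locations alone (adjusted p = 0.057), and IRX5, at 0.71 ± 0.38 (adjusted p = 0.15), was called without RM04 OD (adjusted p = 0.0069).

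With the periphery left aside, edgeR called no member between RPE/choroid locations. Few genes were called at all, 0.0447% between fovea/macula and perimacula, 0.361% of 15789 between fovea/macula and nasal location and 3.07% between perimacula and nasal location. At an unadjusted p under 0.05 the numbers of genes were 1678, 2449 and 3075, and DESeq2 called none of the 5 members in any of the 3 comparisons. IRX2 measured 10.1, 10.9, 9.06 and 7.06 CPM at the perimacula of RM03 OD, RM03 OS, RM04 OD and RM04 OS. At the nasal location it measured 23.7, 21.5, 12.3 and 11.4 CPM in the same order. Each eye had more IRX2 at the nasal location, a perimacular difference of -0.84 ± 0.31 on the log2 scale (adjusted p = 0.15). With these locations fitted alone, IRX2 was called lower (adjusted p = 0.014) and IRX5 and IRX6 higher at the perimacula than at the nasal location (adjusted p = 0.014 and 0.035). The same narrower fit called IRX2 higher at the fovea/macula than at the perimacula (0.99, adjusted p = 0.038) and IRX3 higher at the fovea/macula than at the nasal location (0.59, adjusted p = 0.047).

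**Figure D3:**
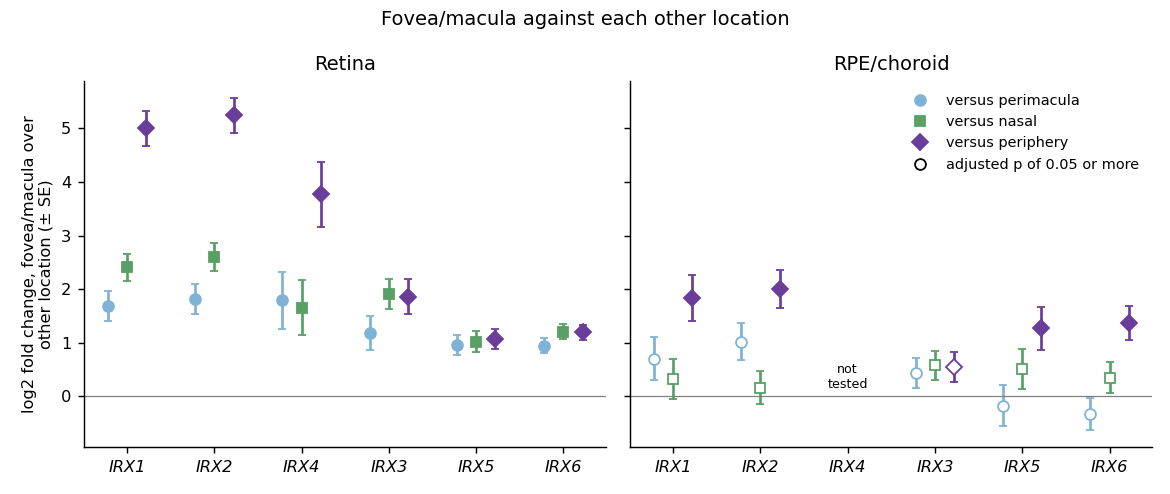
Log2 fold changes of each Iroquois gene at the fovea/macula over the perimacula (circles), the nasal location (squares) and the periphery (diamonds), with bars of 1 SE, in retina (left) and RPE/choroid (right). Filled symbols have an adjusted p under 0.05 by edgeR; all retinal symbols are filled, and in RPE/choroid only the comparisons of IRX1, IRX2, IRX5 and IRX6 with the periphery are.

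The makeup of the RPE/choroid also varied with location. The 3 of 4 smooth muscle markers found summed to 5675 CPM in foveal, 3066 in perimacular, 3291 in nasal and 719 in peripheral tissue, and all 3 were called higher at the fovea/macula than at the periphery. The 4 endothelial markers summed to 1792, 1418, 1522 and 1000 CPM in that order, and all 4 were called higher at the fovea/macula than at the periphery. The 4 of 5 fibroblast markers found summed to 2675, 3305, 3481 and 7130 CPM, with 2 called lower at the fovea/macula. The 4 Schwann cell markers averaged 165 CPM at the fovea/macula (151 to 179) and 4037 at the periphery (440 to 11090), with 3 called lower at the fovea/macula. The 4 melanocyte markers summed to 5659, 6584, 4855 and 9196 CPM, and the 3 of 5 RPE markers found to 8293, 5001, 8816 and 4653 CPM. The melanocyte list holds MITF, PMEL, TYRP1 and DCT. Since the study counts PMEL among known RPE genes, this sum cannot be read as melanocytes apart from RPE. Lists named for cells of the neural retina were also measured in these libraries, but they cannot be read as retinal tissue alone. At the fovea/macula the Mueller glia list averaged 3533 CPM in RPE/choroid against 1057 CPM in retina. The bipolar list averaged 271 against 810 CPM and the amacrine list 240 against 460 CPM. The ganglion cell markers summed to 295 to 397 CPM at the fovea/macula and 134 to 235.5 CPM at the periphery, a ratio of means of 1.87, with 1 of 9 tested called higher and none lower. The amacrine markers summed to 227 to 256 and 80.2 to 132 CPM, a ratio of 2.38, with 2 of 5 called higher and 3 lower. The cone markers summed to 180 to 549 and 41.1 to 240 CPM, a ratio of 2.36, with none of 5 called. The ratios of the rod, bipolar and Mueller glia sums were 0.400, 0.746 and 0.757, with none called higher and 0, 3 and 3 lower. No marker of any of these lists was at 0 in all libraries of a group. The part of these shifts in the Iroquois differences was not tested.

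The animals differed in the RPE/choroid. At the fovea/macula IRX1, IRX3, IRX5 and IRX6 were called higher in RM03 than in RM04, 4 of 5 members against 5.74% of 15789 genes. The same 4 genes were called at the perimacula, against 4.5% of genes, and at the nasal location, against 5.32%. None of the 5 was called at the periphery, where 10.2% of genes were called in either direction. This comparison was added after the data were seen, and since each animal is 1 individual it separates these individuals only.

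IRX5 had the widest gap between the animals. Its level was 58.5 and 70.1 CPM in RM03 against 10.1 and 18.1 CPM in RM04 at the fovea/macula. At the perimacula it was 68.9 and 84.9 against 13.7 and 15.5 CPM, and at the nasal location 41.9 and 56.8 against 8.86 and 8.44 CPM. No eye of RM04 came near the eyes of RM03 at these locations, whereas at the periphery 14.5 and 12.4 CPM stood against 13.1 and 6.70 CPM. The log2 differences of IRX5 were 2.17 ± 0.32, 2.38 ± 0.33, 2.50 ± 0.33 and 0.44 ± 0.31 (adjusted p = 0.0019, 0.0013, 0.00091 and 0.41).

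IRX6 was also apart between the animals. It stood at 33.5 and 39.0 CPM in RM03 against 11.01 and 11.4 CPM in RM04 at the nasal location, and the animals did not overlap at the fovea/macula or the perimacula either. The log2 differences of IRX6 were 1.54 ± 0.28 (fovea/macula), 1.11 ± 0.27 (perimacula), 1.68 ± 0.28 (nasal) and 0.06 ± 0.27 (periphery). IRX1 differed by 1.73 ± 0.28, 1.20 ± 0.27, 1.67 ± 0.28 and -0.50 ± 0.28 in that order, and IRX3 by 1.22 ± 0.20, 0.91 ± 0.20, 1.35 ± 0.20 and -0.28 ± 0.20. IRX2 was also higher in both eyes of RM03 at these 3 locations but passed no test, at 1.19 ± 0.39, 0.36 ± 0.39 and 0.92 ± 0.39 (adjusted p = 0.081, 0.65 and 0.17). Without an eye of RM04, which leaves a lone eye assumed to vary like the others, the calls fell to between 1 and 2 at the fovea/macula and the nasal location and to 1 at the perimacula. Without RM03 OS the call at the perimacula was again 1. IRX5 was called at all 3 locations whichever eye was left out.

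Markers moved with the animal as well. The 3 RPE markers summed to 4569 and 6840 CPM in RM03 and to 10860 and 10900 CPM in RM04 at the fovea/macula, and RM03 was lower at the perimacula and the nasal location too. None of the 3 was called between the animals at any location. The melanocyte markers, which include PMEL and are not separate from RPE, also differed. They summed to 6160 to 6517 CPM in RM03 and 4867 to 5092 CPM in RM04 at the fovea/macula, with 1 called higher and 2 lower in RM03. The endothelial markers summed to 1383 to 1689 and 2008 to 2089 CPM, with 2 called lower in RM03, and the smooth muscle markers to 5573 to 7288 and 4377 to 5463 CPM, with none called. The part of these differences in the Iroquois levels was not tested.

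Tested within each animal, the fovea/macula stood above the periphery for 5 of 5 members in RM03, against 17.5% of genes, and for IRX1 and IRX2 in RM04, against 16.6% of genes. In RM03 the log2 fold changes were 3.04 ± 0.29 for IRX1, 2.61 ± 0.41 for IRX2, 1.33 ± 0.20 for IRX3, 2.24 ± 0.32 for IRX5 and 2.14 ± 0.28 for IRX6. In RM04 they were 0.81 ± 0.28, 1.37 ± 0.40, -0.16 ± 0.20, 0.51 ± 0.32 and 0.65 ± 0.27. Within RM04, IRX1 lost its call without RM03 OS (adjusted p = 0.054), and IRX2 without RM03 OD or RM03 OS (adjusted p = 0.054 and 0.057). Leaving out RM04 OD or RM04 OS leaves a lone eye of that animal. In either case IRX1 lost its call, and IRX2 lost its call without RM04 OS. Without RM04 OD a member not called before was called. The difference between the animals was called for IRX1, at 2.23 ± 0.39 (adjusted p = 0.042), 1 of 5 members against 0.329% of genes called in that direction. IRX3 lay at the threshold with 1.5 ± 0.28 (adjusted p = 0.050). IRX1 lost that call without RM03 OS, RM04 OD or RM04 OS (adjusted p = 0.19, 0.65 and 0.18), and DESeq2 called IRX1, IRX3, IRX5 and IRX6.

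**Figure D4:**
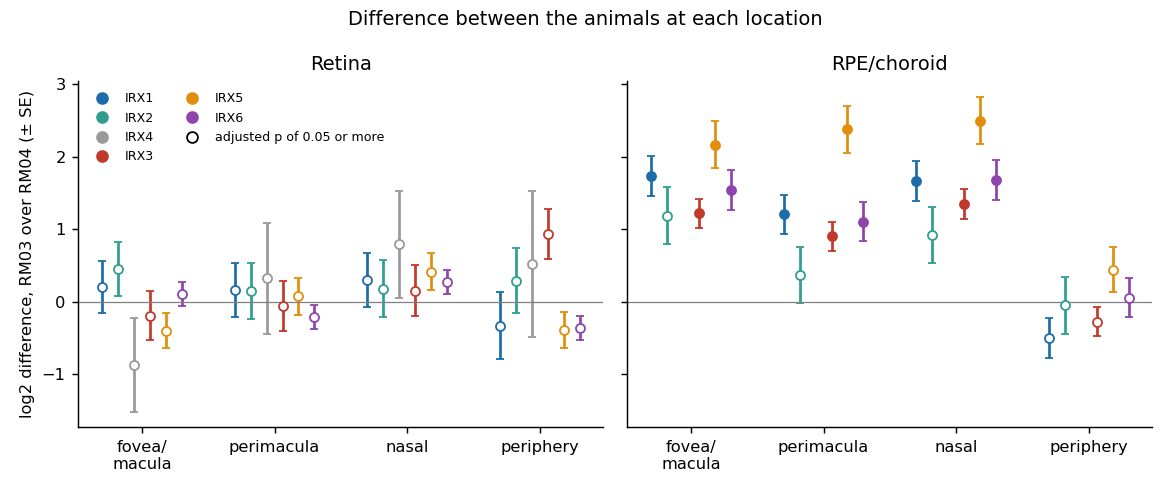
Log2 difference of each Iroquois gene between RM03 and RM04 at each location, positive where RM03 was higher, with bars of 1 SE, in retina (left) and RPE/choroid (right). Filled symbols have an adjusted p under 0.05 by edgeR; no retinal symbol is filled, and IRX1, IRX3, IRX5 and IRX6 are filled at the fovea/macula, perimacula and nasal location of the RPE/choroid.

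Set against each other at the same location, retina and RPE/choroid held the members in different proportions. IRX4 was the gene found almost wholly in retina. Its highest RPE/choroid library held 3 counts, and the 4 retinal libraries of the fovea/macula held 22 to 92. At the periphery both tissues were near the limit, with 0 to 14 counts in retina and none in RPE/choroid, which allows up to 0.0478 CPM in any of those libraries. IRX3 and IRX5 were higher in the RPE/choroid at every location. The retinal ranges of IRX3 lay wholly below those of the RPE/choroid at all 4 locations, with log2 differences of retina over RPE/choroid from -1.11 ± 0.31 at the fovea/macula to -2.42 ± 0.33 at the nasal location. Those of IRX5 ran from -1.28 ± 0.50 at the periphery to -2.96 ± 0.53 at the perimacula, with overlap of ranges at the fovea/macula.

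For IRX1, IRX2 and IRX6 the size of the tissue difference varied with location. At the fovea/macula IRX1 averaged 15.8 CPM in retina and 15.4 CPM in RPE/choroid, a difference of 0.19 ± 0.38 (adjusted p = 0.67). It averaged 0.507 against 3.44 CPM at the periphery, a difference of -2.79 ± 0.43 (adjusted p = 1.8e-06). IRX2 was higher in retina at the fovea/macula in 4 of 4 eyes, 34.2 against 19.6 CPM and 0.86 ± 0.30 on the log2 scale (adjusted p = 0.012). At the periphery it was lower in retina in all eyes, by -2.31 ± 0.33 (adjusted p = 5.3e-07). IRX6 was lower in retina at the perimacula, by -1.75 ± 0.34, and at the nasal location, by -1.43 ± 0.34. It passed no test at the fovea/macula, at -0.58 ± 0.33 (adjusted p = 0.11), or at the periphery, at -0.20 ± 0.33 (adjusted p = 0.59). At the fovea/macula RM03 OD and OS held 19.3 and 18.3 CPM of IRX6 in retina against 40.7 and 48.5 CPM in RPE/choroid. RM04 OD and OS held 18.4 and 17.04 against 11.9 and 18.1 CPM.

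The calls between the tissues numbered 4 of 6 members at the fovea/macula and 4, 6 and 5 at perimacula, nasal location and periphery. The shares of 16382 genes called were 75.5%, 76.7%, 76.2% and 75.7%, so that most genes differed between the tissues. These counts include IRX4 at each location, which passed the filter only through its retinal counts, so that its calls carry no weight. With at least 10 counts required in every library, which left IRX4 out, the calls were 3, 3, 5 and 4 of 5 members. In that fit 10176, 10265, 10207 and 10128 of 13083 genes were called. At the fovea/macula IRX3 and IRX5 lost their calls without RM03 OD (adjusted p = 0.053 and 0.059), and IRX5 also without RM03 OS (adjusted p = 0.058). At the periphery IRX5 was lost without either eye of RM03 (adjusted p = 0.098 and 0.067). The retinal levels of IRX1 and IRX2 at the periphery were below those of the RPE/choroid in each eye. At the fovea/macula IRX1 was higher in RPE/choroid than in retina in both eyes of RM03 and lower in both eyes of RM04. Rod genes in the foveal RPE/choroid stood at 1.48%, 1.11%, 12.9% and 2.97% of their retinal sum in RM03 OD, RM03 OS, RM04 OD and RM04 OS.

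The step from fovea/macula to periphery was larger in retina than in RPE/choroid for IRX1, by 2.97 ± 0.57 on the log2 scale (adjusted p = 0.00014), for IRX2, by 3.16 ± 0.44 (adjusted p = 2.6e-06), and for IRX3, by 1.28 ± 0.44 (adjusted p = 0.021). These were 3 of 6 members, against 19.1% of genes called in that direction. For IRX3 the larger retinal step was that of RM04. Its foveal over peripheral ratios in RM04 OD and OS were 5.31 and 5.48 in retina and 0.694 and 1.14 in RPE/choroid. In RM03 OD and OS they were 2.76 and 2.16 in retina and 2.33 and 2.77 in RPE/choroid. IRX5 and IRX6 did not pass the test, at -0.48 ± 0.70 and -0.38 ± 0.46. For these genes the eyes differed. Foveal over peripheral ratios of IRX5 in RM03 OD, RM03 OS, RM04 OD and RM04 OS were 1.89, 2.04, 1.95 and 2.16 in retina. In RPE/choroid they were 4.05, 5.64, 0.765 and 2.70. Those of IRX6 were 2.66, 2.44, 1.79 and 2.05 in retina and 3.26, 6.485, 1.22 and 1.91 in RPE/choroid. IRX4 did not pass either, and its RPE/choroid counts of 0 to 3 give no usable fold. The same 3 genes were called for the change from the fovea/macula to the nasal location, IRX1 at 2.06 ± 0.55, IRX2 at 2.38 ± 0.43 and IRX3 at 1.31 ± 0.44, against 11% of genes. None was called for the change to the perimacula, where 15.2% of genes were called in either direction and DESeq2 called none of the 6 members. Without the animal covariate IRX3 was not called for the periphery (adjusted p = 0.11) or the nasal location (adjusted p = 0.085), which left IRX1 and IRX2. IRX3 also lost its call for the periphery without RM04 OD (adjusted p = 0.27) or RM04 OS (adjusted p = 0.11), and for the nasal location without any of the eyes. IRX1 lost its call for the nasal location without RM03 OD (adjusted p = 0.058).

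Across the 16 retinal libraries, IRX1 and IRX2 tracked each other with a Pearson r of 0.994 on log2 CPM. This was the highest value of IRX1 with any of 12351 genes, ahead of SYT2, a synaptic vesicle calcium sensor (0.993), and ANKRD34A (0.991). The closest to IRX2 were PTCHD4 (0.995), IRX1 and ANKRD34A (0.993). IRX4 was nearest to PPFIA3, a liprin of the presynaptic active zone (0.962), followed by MKL1 and AJM1 (both 0.958), with IRX1 at 0.911. IRX3 was nearest to ENDOD1 (0.966), ART5 (0.963) and ANGPTL2 (0.959). IRX5 was nearest to SORBS3 (0.945), MGARP (0.928) and EPDR1 (0.922), and IRX6 to PAQR8 (0.975), ATL1, an atlastin that shapes the endoplasmic reticulum (0.973), and TPBG (0.969). Between the clusters the values were lower, from 0.624 for IRX3 with IRX4 to 0.775 for IRX2 with IRX6, while IRX5 and IRX6 stood at 0.892. Among 12351 genes, IRX6 ranked 12 in closeness to IRX5, but IRX5 ranked 336 for IRX6. IRX3 ranked 249 for IRX5 and 735 for IRX6, and for IRX3 itself IRX5 ranked 842 and IRX6 409. Many other genes thus tracked IRX3 and IRX6 more closely than the members of their own cluster did.

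In the RPE/choroid the grouping by cluster was less plain. IRX5 and IRX6 stood at 0.927 and IRX1 and IRX2 at 0.894, but IRX1 also reached 0.870 with IRX6 and 0.853 with IRX5, and the lowest value was 0.552 between IRX2 and IRX3. The genes nearest to IRX1 were ICAM1, an adhesion molecule of endothelium (0.969), SEPT5 (0.966) and LDOC1 (0.961). Those nearest to IRX2 were SPATS2 (0.952), BGN, the matrix proteoglycan biglycan (0.945), and PPP1R16B (0.936). IRX3 was closest to IGSF1 (0.935), PGF, a ligand of the VEGF family (0.925), and ARVCF (0.913). IRX5 was closest to ADCY2, an adenylyl cyclase (0.980), BAMBI, a pseudoreceptor of the TGF-beta family (0.979), and MLEC (0.979), and IRX6 to SERINC2 (0.957), FKBP10 (0.956) and STAT5A (0.953). These values describe 16 libraries that share 4 eyes, 2 animals and 4 locations. By rank correlation only 6 of the 33 nearest genes were the same.

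**Figure D5:**
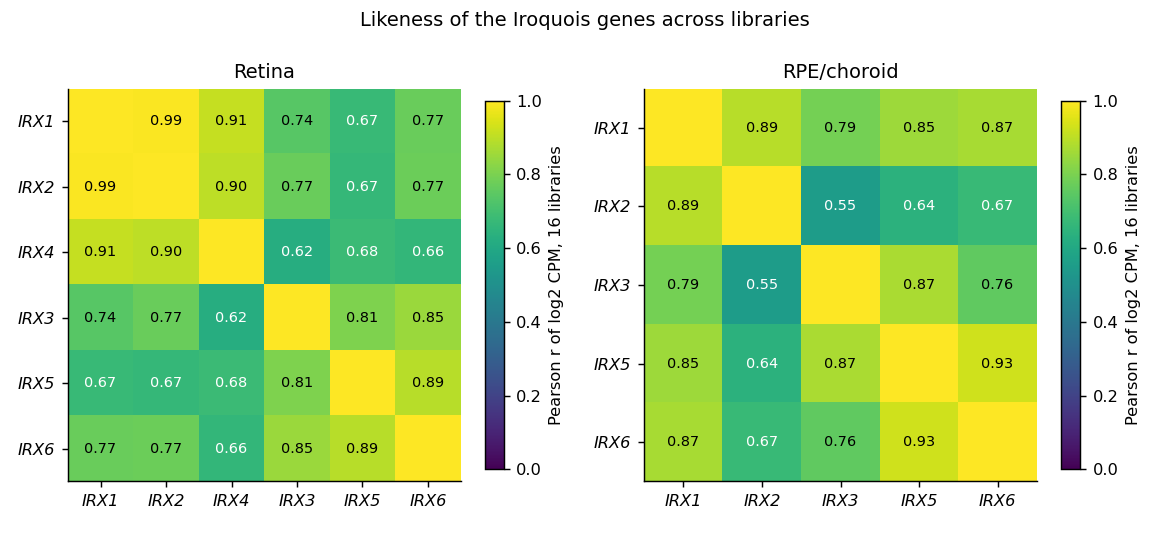
Pearson correlation of log2 CPM between the Iroquois genes over the 16 libraries of the retina (left, 6 genes) and the RPE/choroid (right, 5 genes), on a colour scale from 0 to 1 with the values written in. In retina the highest values are within IRX1, IRX2 and IRX4 (0.90 to 0.99) and within IRX3, IRX5 and IRX6 (0.81 to 0.89).

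Other TALE class genes, which include partners of homeodomain proteins, were followed as a list of 12. In retina 5 were called higher and 4 lower at the fovea/macula than at the periphery, with a median log2 fold change of 0.06. Over all genes 31% were called higher and 36% lower in that comparison. MKX, a regulator of tendon matrix genes, was the highest at 2.05 ± 0.39, and MEIS3 stood at 1.15 ± 0.15. The list also holds the PBX genes, whose products bind DNA together with HOX proteins. TGIF1, a corepressor of TGF-beta and retinoid signalling, was lower at the fovea/macula, at -2.14 ± 0.17. In the RPE/choroid 4 were called higher and 3 lower, with TGIF1 at -1.74 ± 0.16, PBX4 at -1.48 ± 0.35, MEIS1 at -1.21 ± 0.35 and MKX at 1.21 ± 0.33, and a median of -0.09, where 21.2% of all genes were called higher and 22.9% lower. MKX, singled out after its values were seen, was also called higher in RM03 than in RM04 at each of the 4 RPE/choroid locations, by 1.41 ± 0.34 at the fovea/macula and by 2.81 ± 0.36 perimacularly.

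The genes that flank the clusters in the reference order were looked at beside the members. Next to IRX1, IRX2 and IRX4 lie MRPL36, NDUFS6, ADAMTS16 and ICE1. In the retinal comparison of the fovea/macula with the periphery MRPL36, a mitochondrial ribosomal protein, was lower by -1.06 ± 0.09 and ICE1 by -0.24 ± 0.08. MRPL36 stood at -1.18 ± 0.13 in the same comparison of the RPE/choroid. In retina it was also lower at the perimacula (-1.198) and the nasal location (-1.265) than at the periphery. It was not called among the retinal locations other than the periphery. The periphery and its flow cell cannot be told apart. ADAMTS16, a matrix protease, was higher by 1.15 ± 0.45 (adjusted p = 0.039), and NDUFS6, a subunit of complex I, stood at 0.27 ± 0.31 (adjusted p = 0.46). Next to IRX3, IRX5 and IRX6 lie RPGRIP1L, FTO, MMP2 and LPCAT2, which were all called higher at the fovea/macula, from 0.29 ± 0.08 for FTO to 0.75 ± 0.19 for MMP2, a gelatinase. Among the 8 neighbours, ADAMTS16 had the highest log2 fold change, below those of IRX1, IRX2, IRX3, IRX4 and IRX6 and above that of IRX5. Its SE of 0.45 spans the values of both IRX5 and IRX6.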

How the data were processed

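RNA-seq values of 136 sequencing lanes of 32 libraries were used. Per the labels and the methods of the study, RNA was read as poly-A selected paired ends, and the authors quantified each lane with Salmon 0.13 against Mmul_8.0.1 and summed transcripts to genes with tximport. The authors deposited a column headed TPM, whose lane sums ran from 7933344 to 39445657 and so are not those of TPM. These deposited values were read as estimated counts that the authors had scaled for transcript length with tximport. This identity was inferred from the sums and from the methods, which name such values for a display of levels. Each library was the rounded sum of its lanes, and 10 entries that repeat an identifier were dropped. How reads shared between Iroquois paralogs were divided was not tested.

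Differences were tested with edgeR 4.0.16 (quasi-likelihood, TMM, filterByExpr at a minimum count of 10, animal as covariate) in R 4.3.3 with limma 3.58.1, and p-values were adjusted by Benjamini-Hochberg over every gene tested, with calls at 0.05. Locations of a tissue were fitted together, without the nasal libraries unless they were compared. The tissues were compared in a fit of 32 libraries, in which both shared the same animal difference. SE is the log2 fold change divided by the root of F. Animals were compared in a fit of animal by location in 16 libraries of a tissue, added after the data were seen. The scripts were tested on simulated data. Alternatives were DESeq2 1.42.0, RLE factors, other filters, the eye as a replicate block, no covariate, other sets of libraries and leaving out each eye. Levels are means ± SD of 4 eyes. Limits of a count of 0 are the level of 3 counts and cover counting error only. Genes named are the members, the other TALE genes, flanking genes in the order of a RefSeq annotation of a later macaque assembly and, for each member and tissue, the 3 genes of highest Pearson r on log2 CPM. The marker lists were ganglion, bipolar, amacrine, rod, cone and Mueller glia cells, RPE, melanocytes, fibroblasts, endothelium, smooth muscle and Schwann cells. Members and lists were chosen with earlier results of these data known. Deviations from the location means correlated at 0.576 between libraries of the same eye in different locations and at 0.569 between fellow eyes in retina, and at 0.400 and 0.417 in RPE/choroid. Figures used Python 3.11.15, numpy 2.4.6, pandas 2.3.3 and matplotlib 3.10.9.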

Additional observations from a re-analysis of the deposited data

Results flagged for a closer look

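Of 44 sets of 4 eyes, 2 held an eye whose gap to its nearest neighbour exceeded 0.829 of the range of the set, and about 1 in 20 sets would do so by chance. IRX3 in RM03 OD stood at 6.52 CPM at the fovea/macula of the retina, below the other 3 eyes. IRX2 in RM04 OS stood at 4.84 CPM at the nasal location of the retina, also the lowest eye.

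The change from the fovea/macula to the periphery differed between retina and RPE/choroid by 2.97 for IRX1, 3.16 for IRX2 and 1.28 for IRX3 on the log2 scale (adjusted p = 0.00014, 2.6e-06 and 0.021), larger in retina in each case. For IRX3 this held in both eyes of RM04, whereas the ratios of the RM03 eyes overlapped between the tissues. The change to the nasal location differed by 2.06 for IRX1, 2.38 for IRX2 and 1.31 for IRX3 (adjusted p = 0.0068, 0.0002 and 0.030). In the RPE/choroid the change of IRX1 from the fovea/macula to the periphery was larger in RM03 than in RM04 by 2.23 (adjusted p = 0.042).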

How the results depend on the processing

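All 6 members stayed called higher in foveal than in peripheral retina under every alternative that tested them, and the calls between the tissues at the perimacula and the nasal location kept their number when any eye was left out. The eye as a replicate block left all counts as they were, with 6 members called from fovea/macula to periphery in retina and 4 in the RPE/choroid. With DESeq2, 2 members were called between the perimacula and the nasal location of the retina, and 4 for the difference between the animals in the RPE/choroid change from the fovea/macula to the periphery, for which the stricter filter gave 2. With the compared locations alone, 1, 1 and 3 members were called in the RPE/choroid between the fovea/macula and the perimacula, the fovea/macula and the nasal location, and the perimacula and the nasal location. Without the covariate 1 was called between the perimacula and the periphery of the RPE/choroid, 2 between its nasal location and periphery, 3 between its fovea/macula and periphery, and 2 for each tissue difference that had 3; the nasal count was also 2 with the compared locations alone. The cause was not tested.

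Leaving out each eye in turn gave 1 to 4 members between the perimacula and the periphery and 1 to 4 between the nasal location and the periphery of the RPE/choroid, 2 to 4 between the tissues at the fovea/macula, and 1 to 2 for the tissue difference in the change to the nasal location. Between the animals in the RPE/choroid the foveal, perimacular and nasal counts ran from 1 to 4, 1 to 3 and 1 to 4. Within RM04 it gave 0 to 2 members between the fovea/macula and the periphery, and 0 to 1 for the difference between the animals. Spearman correlation shared 6 of 33 nearest genes, and a prior count of 0.25 shared 29.

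Of the log2 fold changes, 19 values changed sign under an alternative, and 0 of these belonged to a result called before. With an eye left out in turn, the retinal perimacula over the nasal location ran from -0.24 to 0.048 for IRX4 and from -0.10 to 0.17 for IRX5, and the nasal location over the periphery from -0.19 to 0.31 for IRX3, from -0.14 to 0.17 for IRX5 and from -0.15 to 0.14 for IRX6. IRX3 in the RPE/choroid ran from -0.16 to 0.44 between the perimacula and the periphery and from -0.37 to 0.25 between the nasal location and the periphery. IRX2 between the tissues at the perimacula ran from -0.17 to 0.38, and the tissue difference of IRX6 in the change to the periphery from -0.51 to 0.020. Between the animals at the periphery of the RPE/choroid, IRX2 ran from -0.66 to 1.03 and IRX6 from -0.39 to 0.39, and within RM04 between the fovea/macula and the periphery IRX3 from -0.51 to 0.17 and IRX5 from -0.37 to 1.42. IRX5 between the nasal location and the periphery of the retina was -0.0066 with the stricter filter, and IRX3 between those locations of the RPE/choroid was 0.14 without the covariate. With 2 animals and 4 eyes a group, spread between individuals was measured on 2 individuals only, and IRX4 rests on counts under 100.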
